A study of Mus musculus with 42 samples.

Results

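Levels of 8 genes that make, carry and recycle vitamin C were followed through kidney and liver RNA of mice on 7 diets. They are Gulo, Rgn, Akr1a1, Ugdh and Ugp2 of synthesis, the transporters Slc23a1 and Slc23a2, and Gsto1 of recycling. They were chosen by name, as the rows of the gene count table whose Ensembl identifier carries one of these symbols in GENCODE M21, and all 8 were found among 43629 rows. The mice were male UM-HET3, a genetically mixed stock, put on the diets at 3 months of age, with tissue taken at 4 months. Kidney libraries came from mice on plain Purina 5LG6 chow (control littermates, n = 6) and from mice given the same chow with 1 compound added (n = 4 each): ascorbyl-palmitate (6.3 ppm), KU0063794 (10 ppm), AZD8055 (20 ppm), AS-703026 (30 ppm), GDC-0941 (50 ppm) or enzastaurin (75 ppm). Liver libraries came from mice on AS-703026, enzastaurin and GDC-0941 at the same doses (n = 4 each), and liver controls were not analysed here. Ascorbyl-palmitate is a fat-soluble ester of vitamin C, AS-703026 inhibits the kinase MEK, AZD8055 and KU0063794 inhibit mTOR, enzastaurin inhibits protein kinase C and GDC-0941 inhibits PI3K.

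Most mammals make their own vitamin C in the liver from glucose by way of glucuronate. Ugp2 makes UDP-glucose, Ugdh oxidises it to UDP-glucuronate, Akr1a1 reduces free glucuronate to gulonate, Rgn closes gulonate to its lactone, and Gulo oxidises the lactone to ascorbate, a step that humans have lost. Slc23a1 takes ascorbate back from the filtrate in the kidney tubule, Slc23a2 brings it into most other cells, and Gsto1 can reduce dehydroascorbate, the oxidised form, back to ascorbate with glutathione.

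The sequences before the start sites of 3 of these genes are shown because the genes stood on opposite sides of the comparison of tissues described further on: Akr1a1 was higher in kidney, Gsto1 and Ugdh in liver. Each run holds the 250 bases before a start site, 5′ to 3′ on the gene's strand, from RefSeq on GRCm38.p6. The windows are chr4:116651675-116651924 (minus strand) for Akr1a1, chr19:47854723-47854972 (plus strand) for Gsto1 and chr5:65435843-65436092 (minus strand) for Ugdh. Capitals mark matches to the GC box GGGCGG and, in Ugdh, to the antioxidant response element core TGACNNNGC, searched on both strands.
Akr1a1: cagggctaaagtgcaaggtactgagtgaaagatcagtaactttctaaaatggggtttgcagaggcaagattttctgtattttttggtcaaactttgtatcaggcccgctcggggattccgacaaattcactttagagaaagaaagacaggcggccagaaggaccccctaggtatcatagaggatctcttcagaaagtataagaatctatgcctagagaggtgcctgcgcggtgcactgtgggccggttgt
Gsto1: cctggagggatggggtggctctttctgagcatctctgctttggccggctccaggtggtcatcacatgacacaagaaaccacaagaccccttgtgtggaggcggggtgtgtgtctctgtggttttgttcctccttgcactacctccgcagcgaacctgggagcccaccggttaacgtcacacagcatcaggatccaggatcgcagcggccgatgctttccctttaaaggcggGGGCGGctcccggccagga
Ugdh: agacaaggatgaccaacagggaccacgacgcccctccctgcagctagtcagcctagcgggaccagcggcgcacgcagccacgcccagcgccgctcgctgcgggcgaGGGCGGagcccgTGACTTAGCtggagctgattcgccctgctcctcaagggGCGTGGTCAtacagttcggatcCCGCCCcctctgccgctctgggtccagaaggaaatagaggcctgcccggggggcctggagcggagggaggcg
No capitals stand in the Akr1a1 window, which has 46.8% G or C, against a median of 52.4% over 32851 RefSeq windows of this length. The Gsto1 window has 1 GC box at bases -19 to -14 from the start site. The Ugdh window (69.2%) has 2 GC boxes, at -144 to -139 and -72 to -67, and 2 antioxidant response element cores, at -132 to -124 and -94 to -86. Of all windows, 32.7% hold a GC box and 10.2% the antioxidant core. The TATA box TATAAA (12.4% of windows), CCAAT (33.8%) and the E-box CACGTG (6.02%) were searched in the same way and were found in none of the 3 windows. Windows of 5 of the 8 genes were used, the other ones being Ugp2 and Slc23a2 with 2 starts each. None was held for Gulo and Rgn, and none was used for Slc23a1. Akr1a1 is thus the only gene higher in kidney with a window here. These matches describe letters and were not tested for use.

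Total gene counts ran from 863605 to 5691067 in the 30 kidney libraries and from 1084591 to 4361115 in the 12 liver libraries. Levels are given as CPM, a gene's counts relative to the total of its library, after TMM scaling, which corrects for differences in RNA composition. The method reads the 3′ ends of transcripts, and levels are compared between libraries and not between genes. Marker genes fitted the tissue labels: summed over 10 hepatocyte genes, liver libraries stood at 64041 CPM or more, and summed over 8 proximal tubule genes, kidney libraries stood at 3067 CPM or more and liver libraries at 26.7 or less. Some kidney libraries stood apart. The hepatocyte sum was 1559 CPM in enzastaurin replicate 1 and 679 in AZD8055 replicate 4, and at most 139 elsewhere in kidney. The adipocyte sum of 6 genes was 27400 CPM in AZD8055 replicate 4 and at most 317 in the other kidney libraries. The collecting duct and inner medulla sum of 5 genes was 5156 CPM in AS-703026 replicate 4 and at most 1069 in the others. Satellite-like gene models took 5% or more of the counts in 11 kidney libraries. Values without these libraries stand beside the changes they moved most. In bulk RNA, fewer cells of a type and less RNA per cell cannot be told apart.

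With ascorbyl-palmitate, none of the 7 vitamin C genes that could be tested in kidney passed the test. By edgeR's quasi-likelihood test with Benjamini-Hochberg adjustment over 11719 genes, 0 of 7 passed 0.05, where 0.0427% of all genes did. At an unadjusted p under 0.05 stood 1 of the 7, Slc23a1, and 1467 of all 11719 genes. DESeq2 and limma voom also called 0 of the 7. The median log2 change of the 7 genes was 0.16, against 0.00 over all genes tested. Gulo was too low in kidney to pass the filter on low counts.

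The genes that supply UDP-glucuronate had small fitted changes with ascorbyl-palmitate. Ugp2 (ENSMUSG00000001891, GRCm38 chromosome 11, 21321138 to 21371201) stood at 137, 144 and 148 CPM (lowest, median and highest of 6) in control kidney and at 155, 158, 143 and 121 CPM in replicates 1 to 4 with ascorbyl-palmitate. The groups overlapped, and the log2 change was 0.01 ± 0.14 (SE), with a 95% interval of -0.26 to 0.29 and an edgeR adjusted p of 0.985. Ugdh (ENSMUSG00000029201, chromosome 5, 65413221 to 65435949) stood at 78.9, 116 and 134 CPM in control and at 123, 111, 135 and 125 CPM with ascorbyl-palmitate. The treated libraries lay within or just above the control range, with a log2 change of 0.16 ± 0.18 (interval -0.21 to 0.54, edgeR adjusted p = 0.784).

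Of the enzymes after glucuronate, Akr1a1 and Rgn were measurable in kidney and neither passed the test. Akr1a1 (ENSMUSG00000028692, chromosome 4, 116636510 to 116651680) stood at 3530, 4038 and 5702 CPM in control and at 3978, 5400, 3791 and 4107 CPM with ascorbyl-palmitate. All 4 treated libraries lay inside the control range, and the log2 change was -0.01 ± 0.23 (interval -0.48 to 0.46, edgeR adjusted p = 0.993). Rgn (ENSMUSG00000023070, chromosome X, 20549787 to 20562089) was low, at 6.37, 9.71 and 13.2 CPM in control and at 16.3, 8.07, 18.4 and 14.4 CPM with ascorbyl-palmitate. Replicates 1, 3 and 4 lay above all controls and replicate 2 among them, so the groups overlapped, and the log2 change of 0.54 ± 0.42 (interval -0.32 to 1.41) did not pass (edgeR adjusted p = 0.658). Rgn rested on 5 to 85 counts per kidney library.

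Gulo (ENSMUSG00000034450, chromosome 14, 65986786 to 66009207), the last enzyme of synthesis, was near the limit of counting in kidney. All 30 kidney libraries together held 68 of its counts, 20 of them in enzastaurin replicate 1, and 8 libraries held 0. A count of 0 allows up to 3 counts, which came to between 0.784 and 2.69 CPM of the totals of those 8 libraries. Pooled over kidney, the level was 0.958 CPM (exact Poisson 95% interval 0.744 to 1.21, counting error only) and 0.688 CPM (0.507 to 0.912) without enzastaurin replicate 1. With ascorbyl-palmitate it stood at 0.837, 0.968, 0.409 and 0 CPM, and in control at 0, 0.663 and 2.20 CPM (lowest, median and highest). These groups overlapped and were not tested.

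**Figure D1:**
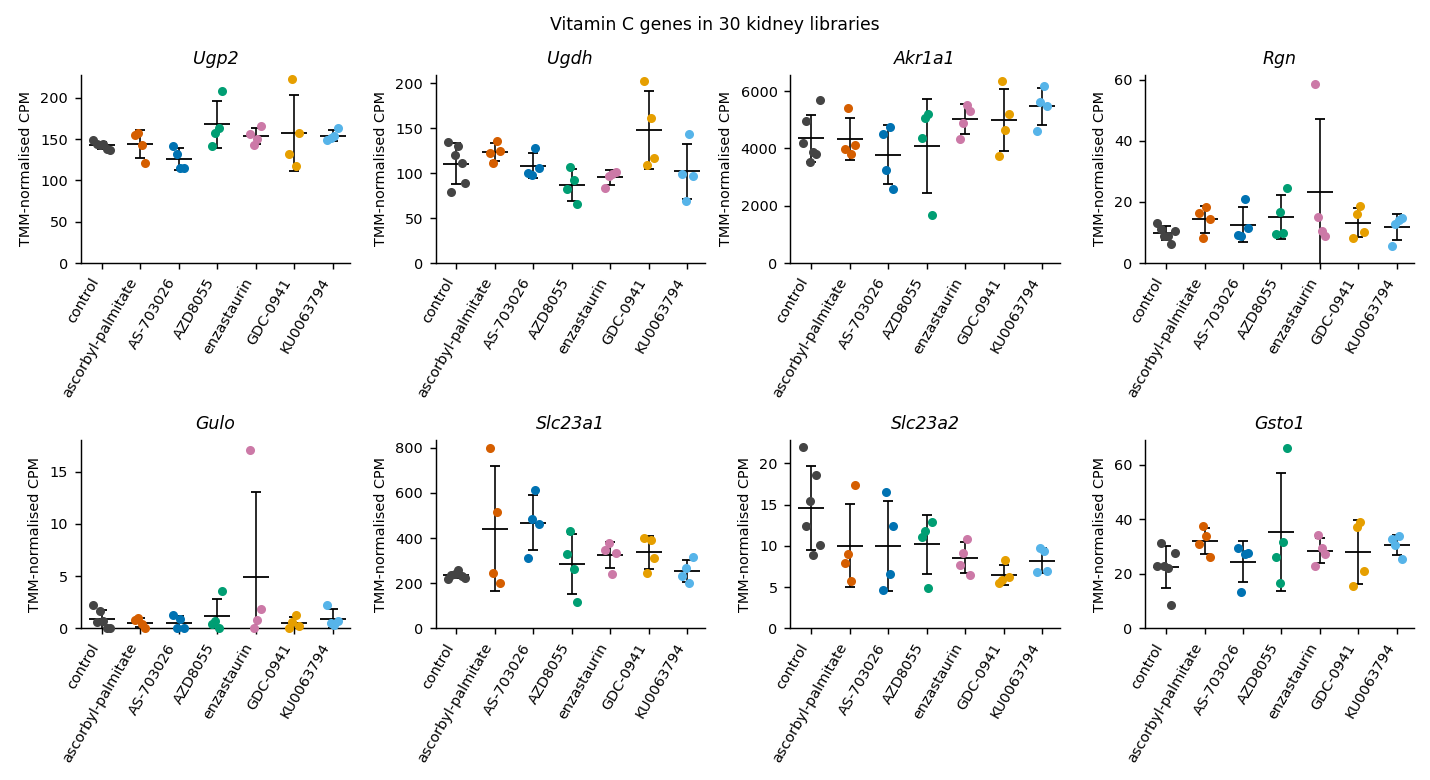
Levels of the 8 vitamin C genes (TMM-normalised CPM, linear axes from 0) in 30 kidney libraries by diet; points are libraries, the wide mark is the group mean and the bar its SD. Slc23a1 lies between 217 and 256 CPM in the 6 controls and spreads to 801 CPM with ascorbyl-palmitate, and 1 enzastaurin library stands apart for Gulo and Rgn.

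Of the ascorbate transporters, Slc23a1 had the largest fitted change with ascorbyl-palmitate among the 7 genes tested, and neither transporter passed. Slc23a1 (ENSMUSG00000024354, chromosome 18, 35614604 to 35627244) stood at 217, 235 and 256 CPM in control and at 801, 244, 514 and 202 CPM in replicates 1 to 4 with ascorbyl-palmitate. Replicates 1 and 3 lay far above every control, replicate 2 lay within their range and replicate 4 below it. The log2 change was 0.91 ± 0.29 (interval 0.31 to 1.504), with an edgeR p of 0.00405 and an adjusted p of 0.166. It passed without the filter on low counts (adjusted p = 0.0122 over 32652 genes), and the change was 0.50 without ascorbyl-palmitate replicate 1 (adjusted p = 0.672). Without the 11 kidney libraries rich in satellite-like counts, replicate 4 among them, it was 1.18 (adjusted p = 0.126). Slc23a2 (ENSMUSG00000027340, chromosome 2, 132052496 to 132145108) stood at 8.84, 13.9 and 22.0 CPM in control and at 7.96, 9.04, 5.73 and 17.3 CPM with ascorbyl-palmitate. The groups overlapped, and the log2 change was -0.48 ± 0.32 (interval -1.14 to 0.17, edgeR adjusted p = 0.577), or -0.90 (adjusted p = 0.252) without the same 11 libraries. Gsto1 (ENSMUSG00000025068, chromosome 19, 47854970 to 47864790) stood at 8.68, 22.9 and 31.2 CPM in control and at 31.0, 37.4, 34.0 and 26.1 CPM with ascorbyl-palmitate, a log2 change of 0.50 ± 0.30 (interval -0.11 to 1.12, edgeR adjusted p = 0.520). Its treated libraries lay at or above the upper part of the control range and overlapped it.

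Umod and the collecting duct and inner medulla sum were high in the same 2 ascorbyl-palmitate libraries as Slc23a1. Umod (uromodulin), made by cells of the thick ascending limb, stood at 4602, 1150, 3886 and 1548 CPM in replicates 1 to 4 and between 910 and 1420 CPM in control. The summed level of 4 thick ascending limb and distal tubule genes was 5382, 2029, 5168 and 2306 CPM, against 1854 to 2334 in control, and none of the 4 was at 0 in any kidney library. Umod, 1 of the 4, made up the larger part of the sum in each ascorbyl-palmitate library, so the sum adds little to it. The rest of the sum was largest in replicate 3 but smaller in replicate 1 than in replicate 2. The list without Umod was thus not high in replicate 1, where Umod and Slc23a1 were highest. The collecting duct and inner medulla sum was 1069, 211, 848 and 275 CPM, against 178 to 229 in control, while the proximal tubule sum was 6431, 8499, 6613 and 6840 CPM, against 8432 to 9624. The part of these levels in the spread of Slc23a1 was not tested.

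Over all 30 kidney libraries, the genes with log2 levels most like Slc23a1 were Napsa, an aspartic protease (Pearson r = 0.912), Aqp1, a water channel of proximal tubule and thin limb (r = 0.894), and Aldoc, an aldolase (r = 0.848). These are descriptions over 30 libraries that share their depth and composition, taken as the highest of 7992 genes. Napsa stood at 2710, 672, 1734 and 733 CPM in the 4 ascorbyl-palmitate libraries, against 437 to 581 in control. Aqp1 stood at 451, 198, 314 and 174 CPM, against 198 to 239 in control. As for Slc23a1, replicates 1 and 3 were the high ones.

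**Figure D2:**
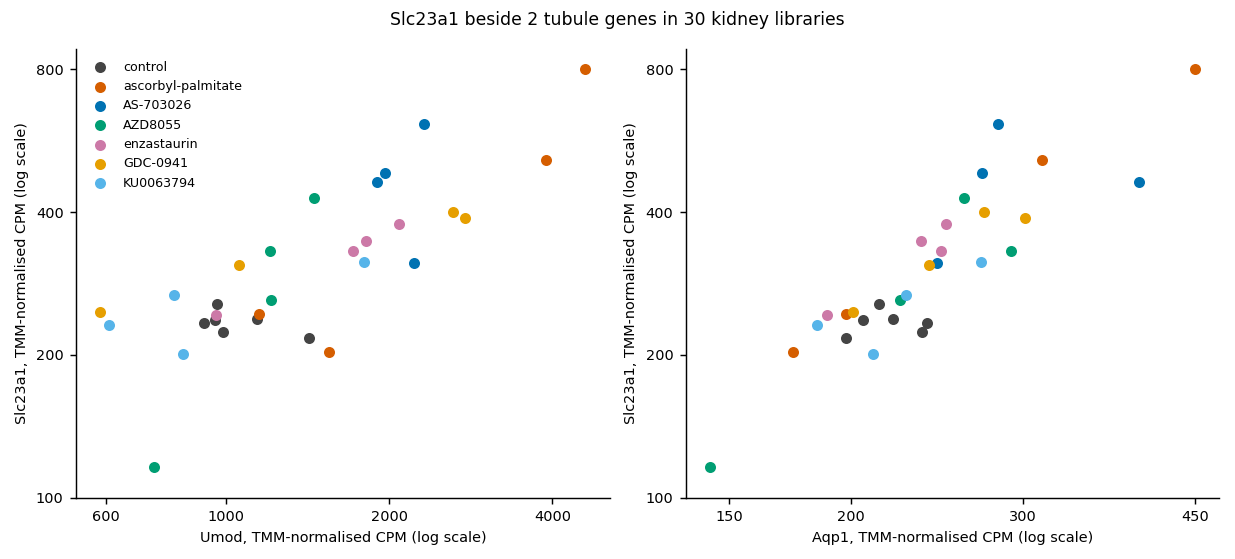
Slc23a1 (vertical axis) against Umod (left) and Aqp1 (right) in 30 kidney libraries, all in TMM-normalised CPM on log axes; each point is a library, coloured by diet. The 2 ascorbyl-palmitate libraries with 801 and 514 CPM of Slc23a1 also have the highest Umod, 4602 and 3886 CPM. AS-703026 replicate 3, with 614 CPM of Slc23a1, has 2319 CPM of Umod.

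Counting of Slc23a1 carries its own limits. The last 600 bases of its transcript share 24-base words with 1739 other genes, most with Dnajb14 (18.0% of the words), whereas the same stretch of each of the other 7 genes shares none. Reads of such repeats may be split or lost. Its span also overlaps Paip2 on the opposite strand with 0 exon bases in common, and Paip2 stood at 168, 195, 205 and 151 CPM with ascorbyl-palmitate and between 137 and 176 CPM in control. Ugdh shares 158 exon bases with the predicted gene Gm43552 on the same strand, and Ugp2 shares 78 with an antisense transcript, Gm12043, that held 50 counts in all libraries.

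With the other 5 compounds, 0 of the 7 tested genes passed in any kidney comparison by edgeR. The share of all genes called was 0.922% with AS-703026, 5.46% with AZD8055, 0% with enzastaurin, 0.137% with GDC-0941 and 0.0427% with KU0063794. At an unadjusted p under 0.05 stood 1, 1, 2, 2 and 1 of the 7 genes in that order. Of all 11719 genes, 1772, 2340, 915, 1532 and 1143 did. DESeq2 and limma voom each called 1 of the 7 with AS-703026 and 0 with the others, DESeq2 giving no adjusted p for Rgn and Slc23a2 with GDC-0941. A test for any difference among the 7 kidney groups called 0 of 7 genes, against 2.51% of all genes.

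Slc23a1 had its highest group mean with AS-703026, where its 4 libraries stood at 313, 484, 614 and 463 CPM, all above the 6 controls. The log2 change was 1.00 ± 0.29 (interval 0.40 to 1.60) with an edgeR adjusted p of 0.0858, so it did not pass. DESeq2 (1.02, adjusted p = 0.0353), limma voom (1.01, adjusted p = 0.0387), a fit of the 2 groups alone (1.04, adjusted p = 0.00563) and the edgeR fit without AZD8055 replicate 4 (1.01, adjusted p = 0.0268) called it. The change was 1.02 (adjusted p = 0.255) without replicate 4, the library with inner medulla transcripts, and 0.44 (adjusted p = 0.921) without the kidney libraries rich in satellite-like counts, which leaves 1 AS-703026 library. Umod stood between 1901 and 2319 CPM in these 4 libraries, also above all controls, and the collecting duct and inner medulla sum between 317 and 5156 CPM, and their part was not tested. Slc23a1 stood at 401, 246, 390 and 310 CPM with GDC-0941 and at 348, 378, 242 and 331 CPM with enzastaurin. With AZD8055 it stood at 331, 429, 261 and 116 CPM and with KU0063794 at 231, 268, 200 and 314 CPM. Without AZD8055 replicate 4 the change with AZD8055 was 0.53 (adjusted p = 0.425), against 0.28 with it. With GDC-0941 it was 0.52, and 0.27 (adjusted p = 0.830) without the libraries rich in satellite-like counts. In each of these 4 groups some libraries lay within the control range or below it. By mean the order was control (234 ± 13.5 CPM, SD), KU0063794 (253 ± 48.8), AZD8055 (284 ± 132), enzastaurin (325 ± 58.5), GDC-0941 (337 ± 72.6), ascorbyl-palmitate (440 ± 277) and AS-703026 (468 ± 123), and each step between neighbours was smaller than the SD of the group above it.

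The 6 kidney comparisons share the same 6 controls, so their values for a gene are not independent. Slc23a2 had changes of -0.48 to -1.14. Its group mean was lowest with GDC-0941, at 5.45, 5.91, 8.30 and 6.19 CPM, below every control, with a log2 change of -1.14 ± 0.35 (interval -1.85 to -0.44, edgeR adjusted p = 0.151). Without the libraries rich in satellite-like counts, GDC-0941 replicates 1 and 3 among them, it was -1.24 (adjusted p = 0.400). With KU0063794 it stood at 8.20 ± 1.55 CPM, with enzastaurin at 8.55 ± 1.87, with ascorbyl-palmitate at 10.0 ± 5.06, with AS-703026 at 10.0 ± 5.44, with AZD8055 at 10.2 ± 3.60 and in control at 14.5 ± 5.08 (SD). These are low levels, resting on 6 to 65 counts per kidney library.

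Gsto1 stood at 26.1, 16.7, 31.8 and 66.3 CPM with AZD8055, the last being the library with adipocyte transcripts. Its log2 change there was 0.65 ± 0.31 (edgeR adjusted p = 0.231), and 0.13 without that library (adjusted p = 0.914). Leaving out the 11 kidney libraries rich in satellite-like counts gave 1.21 and a call (adjusted p = 0.0328), with AZD8055 replicates 3 and 4 kept. In the other groups Gsto1 stood at 24.4 ± 7.56 CPM (AS-703026), 28.1 ± 11.7 (GDC-0941), 28.5 ± 4.68 (enzastaurin) and 30.6 ± 3.72 (KU0063794), with changes of 0.15 to 0.42 that did not pass.

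Rgn and Gulo stood highest in the kidney library with most liver transcript. In enzastaurin replicate 1 Gulo stood at 17.0 CPM and Rgn at 58.8 CPM, whereas the other 3 enzastaurin libraries had 0 to 1.86 CPM of Gulo and 8.998 to 15.1 CPM of Rgn. Alb, which encodes serum albumin, stood at 630 CPM in that library and 236 CPM in AZD8055 replicate 4, where Gulo was 3.60 and Rgn 24.7 CPM. None of the 10 hepatocyte markers was at 0 in either library. Per 1000 Alb counts, Gulo had 27.0 counts in enzastaurin replicate 1, inside the range of 15.2 to 38.1 in the 12 liver libraries. In AZD8055 replicate 4 it had 15.3, at the low edge of that range and resting on 7 Gulo counts. Rgn had 93.2 and 105 counts per 1000 Alb counts in these libraries, in that order, inside the liver range of 79.3 to 299. Over the 29 kidney libraries with an Alb count, these included, the median was 129 for Gulo and 3043 for Rgn. The source of these counts was not tested. The log2 change of Rgn with enzastaurin was 1.14 ± 0.42 (edgeR adjusted p = 0.493), and 0.26 without replicate 1 (adjusted p = 0.887). With AZD8055 it was 0.63 (adjusted p = 0.459), and 0.26 without replicate 4 (adjusted p = 0.891). In the other 28 kidney libraries Alb stood at 11.8 CPM or less and Rgn between 5.66 and 20.9 CPM. Over the 30 libraries the genes most like Rgn were Gc (r = 0.723), Apoc3 (0.705) and Apoe (0.694), which encode plasma proteins. For Ugp2, Ugdh, Slc23a2 and Gsto1 they were Pcca (0.784), Rab8a (0.767), Gpatch2 (0.729) and Coq7 (0.770).

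**Figure D3:**
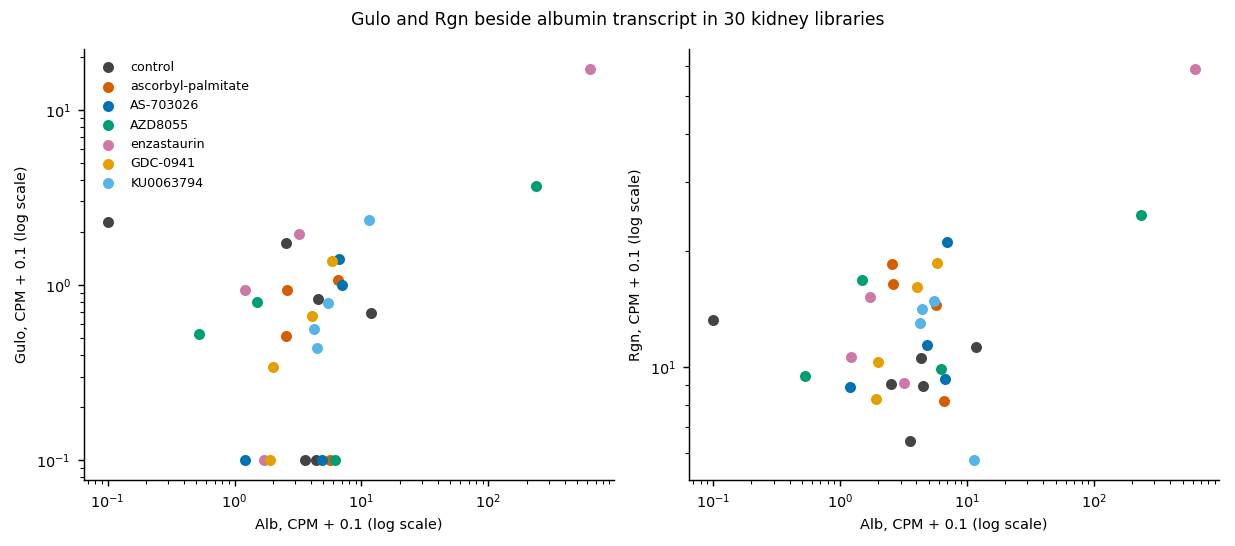
Gulo (left) and Rgn (right) against Alb in 30 kidney libraries, in TMM-normalised CPM with 0.1 added, on log axes; each point is a library, coloured by diet. Enzastaurin replicate 1, with 630 CPM of Alb, has the highest Gulo (17.0 CPM) and Rgn (58.8 CPM).

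Akr1a1, Ugdh and Ugp2 did not pass with any of the other kidney diets. Akr1a1 ran from 3774 ± 1030 CPM (AS-703026) to 5473 ± 637 CPM (KU0063794), with 1683 CPM in AZD8055 replicate 4 as the lowest library. Its changes lay between -0.20 and 0.33, and the lowest edgeR adjusted p was 0.666. With AZD8055 the change was -0.09, and 0.16 without replicate 4, called in neither fit. The gene most like it over the 30 libraries was Cela1, an elastase (r = 0.959), which stood at 21.1 CPM in AZD8055 replicate 4 and between 43.1 and 141 CPM in the others. Ugdh stood at 203, 109, 162 and 117 CPM with GDC-0941, a log2 change of 0.41 ± 0.18 (interval 0.03 to 0.79, edgeR adjusted p = 0.336), and at 82.4, 107, 92.8 and 65.3 CPM with AZD8055, a change of -0.34 ± 0.19 (interval -0.73 to 0.05, adjusted p = 0.331). Both groups overlapped the control. The change of Ugdh with GDC-0941 was -0.02 (adjusted p = 0.997) without the libraries rich in satellite-like counts, and that with AZD8055 was -0.23 (adjusted p = 0.696) without replicate 4. Ugp2 had changes of -0.18 to 0.24, and its group means ran from 126 ± 13.3 CPM (AS-703026) to 168 ± 28.5 CPM (AZD8055), where the change was 0.24, and 0.11 without replicate 4 (edgeR adjusted p = 0.821). With KU0063794 its 4 libraries, at 148 to 164 CPM, lay above the 6 controls by less than 1 CPM at the nearest pair, with a log2 change of 0.11 ± 0.14.

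**Figure D4:**
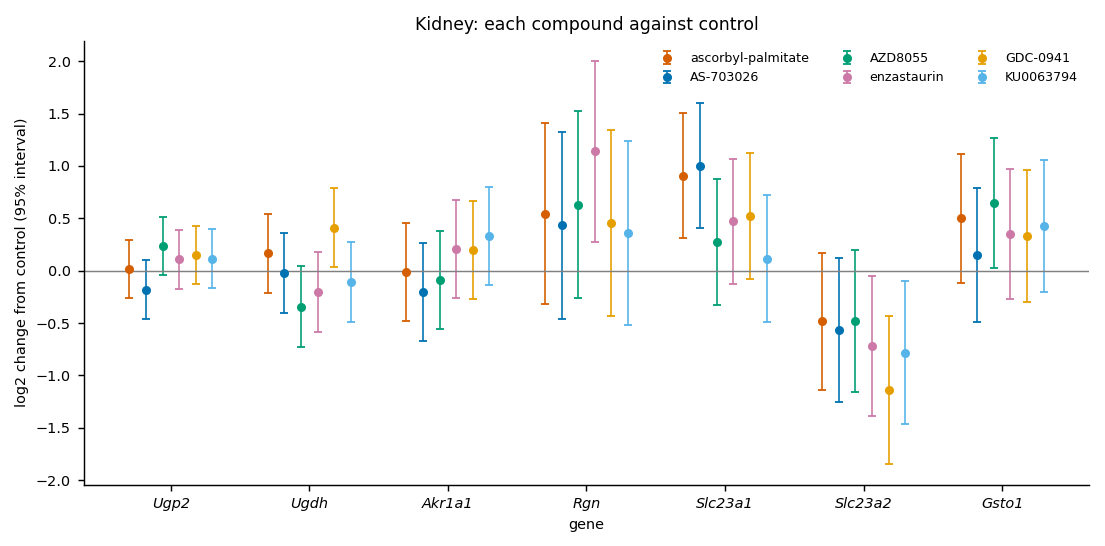
Log2 change from control of 7 vitamin C genes with each of 6 compounds in kidney; points are edgeR estimates and bars their 95% intervals. No change passed the adjusted threshold, and the largest are those of Rgn with enzastaurin (1.14), Slc23a2 with GDC-0941 (-1.14) and Slc23a1 with AS-703026 (1.00).

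In the wider pathway none of the listed genes passed in kidney with ascorbyl-palmitate: of 10 tested genes of the glucuronate and xylulose branch, 8 of dehydroascorbate carriers and transporter partners, 10 of dehydroascorbate reduction and thiols and 19 ascorbate-using hydroxylases, 0 passed. Their median log2 changes were 0.11, 0.36, 0.09 and -0.01, against 0.00 over all genes. Miox, which breaks inositol down to glucuronate, stood at 2279, 4153, 2762 and 2872 CPM, against 1920 to 3454 in control, a log2 change of 0.13 ± 0.28 (edgeR adjusted p = 0.911). Dcxr, the xylulose reductase that leads glucuronate carbon away, stood at 498, 491, 452 and 448 CPM, against 273 to 516 in control, a change of 0.34 ± 0.27 (adjusted p = 0.678). Gsto2, a near relative of Gsto1, was too low to test, with means of 0.875 and 0.384 CPM. With AS-703026, enzastaurin, GDC-0941 and KU0063794 the 4 lists also had 0 calls.

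With AZD8055, 4 genes of these lists passed (1 of 10, 1 of 8, 0 of 10 and 2 of 19 in the same order, where 5.46% of all genes passed), all higher than control, and 3 of them were not called without the library with adipocyte transcripts. Slc2a4, the insulin-responsive glucose carrier of fat and muscle, stood at 7.69, 3.48, 4.27 and 128 CPM, against 4.07 to 7.52 in control (log2 change 2.61 ± 0.63, edgeR adjusted p = 0.0147). Without replicate 4 its change was -0.14 (adjusted p = 0.944). Pgm1, which interconverts glucose phosphates, stood at 157, 157, 161 and 522 CPM and Egln1, an oxygen-sensing prolyl hydroxylase, at 131, 122, 126 and 353 CPM. Their changes of 0.98 and 0.80 (adjusted p of 0.0131 and 0.0225) became 0.32 and 0.26 without replicate 4 (0.315 and 0.451). Hpd, a dioxygenase of tyrosine breakdown, stood at 140, 103, 97.1 and 39.6 CPM, against 30.1 to 46.0 in control. Its change of 1.29 ± 0.25 (adjusted p = 0.00389) was 1.54 without replicate 4. It was 0.86 (adjusted p = 0.136) without the 11 kidney libraries rich in satellite-like counts. That fit kept only AZD8055 replicates 3 and 4, the latter being the library with adipocyte transcripts and the lowest Hpd of the group.

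In liver, Gulo had a lower mean with AS-703026 than with enzastaurin or GDC-0941, and neither difference passed the test. Gulo stood at 310, 406, 287 and 391 CPM with AS-703026, at 604, 403, 514 and 523 CPM with enzastaurin and at 447, 463, 532 and 573 CPM with GDC-0941. All 4 AS-703026 libraries lay below the 4 of GDC-0941, and only enzastaurin replicate 2 reached the AS-703026 range. The log2 difference was -0.55 ± 0.15 from enzastaurin (interval -0.87 to -0.24, edgeR adjusted p = 0.0563) and -0.54 ± 0.15 from GDC-0941 (interval -0.85 to -0.22, adjusted p = 0.0614). DESeq2 called both (adjusted p of 0.0111 and 0.0170), limma voom called the difference from GDC-0941 (0.0422), and edgeR called both without AS-703026 replicate 2 (0.0349 and 0.0335) or enzastaurin replicate 2 (0.0301 and 0.0452). Over all omissions of 1 library the adjusted p ran from 0.0301 to 0.168 against enzastaurin and from 0.0335 to 0.189 against GDC-0941, the highest without AS-703026 replicate 3. Alb stood at 8123, 21159, 13528 and 13864 CPM with AS-703026, against 19047 to 26463 with enzastaurin and 20131 to 27804 with GDC-0941. Per 1000 Alb counts Gulo had 38.1, 19.2, 21.2 and 28.2 counts with AS-703026, 26.2, 15.2, 19.6 and 27.5 with enzastaurin and 16.1, 20.0, 26.4 and 26.2 with GDC-0941, and on this ratio the 3 groups overlapped. The sum of the 10 hepatocyte markers was not lower with AS-703026, at 75907 to 94999 CPM against 64041 to 79574 in the others. The sum mixes genes that varied: over the 12 liver libraries Alb ran from 8123 to 27804 CPM. Fga, another of the 10, ran from 4666 to 19676 CPM, so neither the sum nor Alb is a fixed measure of hepatocyte content. Satellite-like counts were 0.857% or more of each AS-703026 liver library and 0.645% or less of the others, and the part of these and of Alb was not tested. The liver genes most like Gulo over 12 libraries were Ugt2b1, a glucuronosyltransferase (r = 0.958), Hsd17b2, a steroid dehydrogenase (r = 0.953), and Sult1b1, a sulfotransferase (r = 0.945), the highest of 6546 genes.

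By edgeR, 0 of 8 vitamin C genes passed between AS-703026 and enzastaurin (2.96% of all genes did), between AS-703026 and GDC-0941 (3.22%) and between enzastaurin and GDC-0941 (0%). At an unadjusted p under 0.05 stood 3, 2 and 0 of the 8, and 1538, 1527 and 762 of all 9490 genes. DESeq2 called 1, 1 and 0 of the 8. The test for any difference among the 3 liver groups also called 0 of 8, against 3.2% of all genes, and Gulo had an adjusted p of 0.0725. Ugp2 was low in AS-703026 replicates 1 and 3: it stood at 205, 389, 200 and 315 CPM with AS-703026, at 388, 329, 349 and 389 CPM with enzastaurin and at 423, 370, 386 and 397 CPM with GDC-0941. The log2 difference from GDC-0941 was -0.52 ± 0.18 (interval -0.89 to -0.14, edgeR adjusted p = 0.141), and without AS-703026 replicate 2 it was -0.72 and passed (0.0131), while without AS-703026 replicate 3 it was -0.39 (0.341). Rgn ran from 2098 to 2913 CPM over all 12 libraries, and its 3 differences lay between -0.12 and -0.05 with intervals inside -0.38 to 0.21. Slc23a1 had means of 110 ± 12.6 CPM (enzastaurin), 115 ± 18.1 (AS-703026) and 121 ± 14.6 (GDC-0941), with intervals of all 3 differences inside -0.41 to 0.34.

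For Akr1a1, Ugdh, Slc23a2 and Gsto1 the liver groups overlapped in every comparison. Akr1a1 had means of 802 ± 96.2, 861 ± 40.5 and 903 ± 73.7 CPM with AS-703026, enzastaurin and GDC-0941, and Ugdh 188 ± 31.3, 169 ± 10.3 and 174 ± 28.0 CPM. Slc23a2 had 11.4 ± 3.50, 7.94 ± 2.28 and 9.52 ± 1.85 CPM, and Gsto1 148 ± 28.6, 191 ± 31.6 and 188 ± 36.1 CPM. Of the pathway lists in the same order, 1 of 8, 0 of 4, 1 of 10 and 0 of 15 genes passed between AS-703026 and GDC-0941, where 3.22% of all genes did, and none passed in the other liver pairs. Both were lower with AS-703026. Cryl1, which oxidises gulonate toward xylulose, stood at 49.4, 47.1, 48.1 and 54.5 CPM against 68.7, 71.1, 72.3 and 66.9 (log2 difference -0.48 ± 0.11, edgeR adjusted p = 0.0236). Cyb5r3, a reductase that can act on the ascorbate radical, stood at 299, 293, 293 and 329 CPM against 429, 448, 393 and 386 (-0.45 ± 0.09, adjusted p = 0.0161). Neither pair of groups overlapped, and both calls were lost without AS-703026 replicate 1 (adjusted p of 0.0673 and 0.0523), without AS-703026 replicate 3 (0.0853 and 0.0665) and without GDC-0941 replicate 1 (0.0514 and 0.0510) or 2 (0.0620 and 0.0569), and that of Cryl1 also without GDC-0941 replicate 3 (0.0652).

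Between kidney and liver, all 8 genes differed: 6 were higher in liver and 2, Akr1a1 and Slc23a1, higher in kidney. This comparison used 24 libraries, 12 of each tissue, from mice on AS-703026, enzastaurin or GDC-0941, with compound in the model. By edgeR with Benjamini-Hochberg adjustment, 39.2% of all 12262 genes were called higher in kidney and 38.2% lower, so that a call alone says little about a gene here and the sizes are what is described. The median log2 difference of the 8 genes, kidney minus liver, was -1.61, against 0.05 over all genes.

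The last 2 enzymes of synthesis differed most. Gulo ran from 0 to 13.0 CPM in the kidney libraries (median 0.545) and from 371 to 731 CPM (median 574) in liver, on this scale of both tissues. The lowest liver library was 28.4 times the highest kidney library, and the log2 difference was -9.48 ± 0.37 (edgeR adjusted p = 9.16e-18), or -10.05 without kidney enzastaurin replicate 1. Rgn ran from 6.44 to 45.0 CPM in kidney (median 8.58) and from 2615 to 3688 CPM in liver (median 3107), a log2 difference of -8.00 ± 0.29 (adjusted p = 1.94e-18) that was -8.29 without that library. Neither gene's tissues came near to overlapping.

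The early steps, Ugp2 and Ugdh, were also higher in liver, and the step after them, Akr1a1, was higher in kidney. Ugp2 ran from 89.7 to 174 CPM in kidney and from 257 to 530 CPM in liver (log2 difference -1.91 ± 0.11, edgeR adjusted p = 1.28e-14). Ugdh ran from 63.9 to 160 CPM in kidney and from 180 to 281 CPM in liver (-1.31 ± 0.10, adjusted p = 9.20e-12). Akr1a1 went the other way, from 2031 to 4955 CPM in kidney and from 837 to 1251 CPM in liver (1.73 ± 0.13, adjusted p = 3.34e-12).

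Of the transport and recycling genes, Slc23a1 was higher in kidney and Gsto1 higher in liver. Slc23a1 ran from 189 to 480 CPM in kidney and from 119 to 176 CPM in liver, a log2 difference of 1.01 ± 0.11 (edgeR adjusted p = 4.85e-09). Gsto1 ran from 10.4 to 30.9 CPM in kidney and from 151 to 277 CPM in liver, a difference of -3.34 ± 0.14 (adjusted p = 3.79e-17). Slc23a2 ran from 3.57 to 13.0 CPM in kidney and from 7.20 to 18.0 CPM in liver, so its tissues overlapped. How many of all genes overlap between the tissues was not counted. Its difference was -0.91 ± 0.18 (adjusted p = 6.57e-05) with TMM scaling and -0.24 (adjusted p = 0.201) with raw library totals. Raw totals moved the median of all genes by 0.67 toward kidney and the share of higher genes among the calls from 50.6% to 73.7%, and kept the direction of all 8 genes, with the call of Slc23a2 lost.

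**Figure D5:**
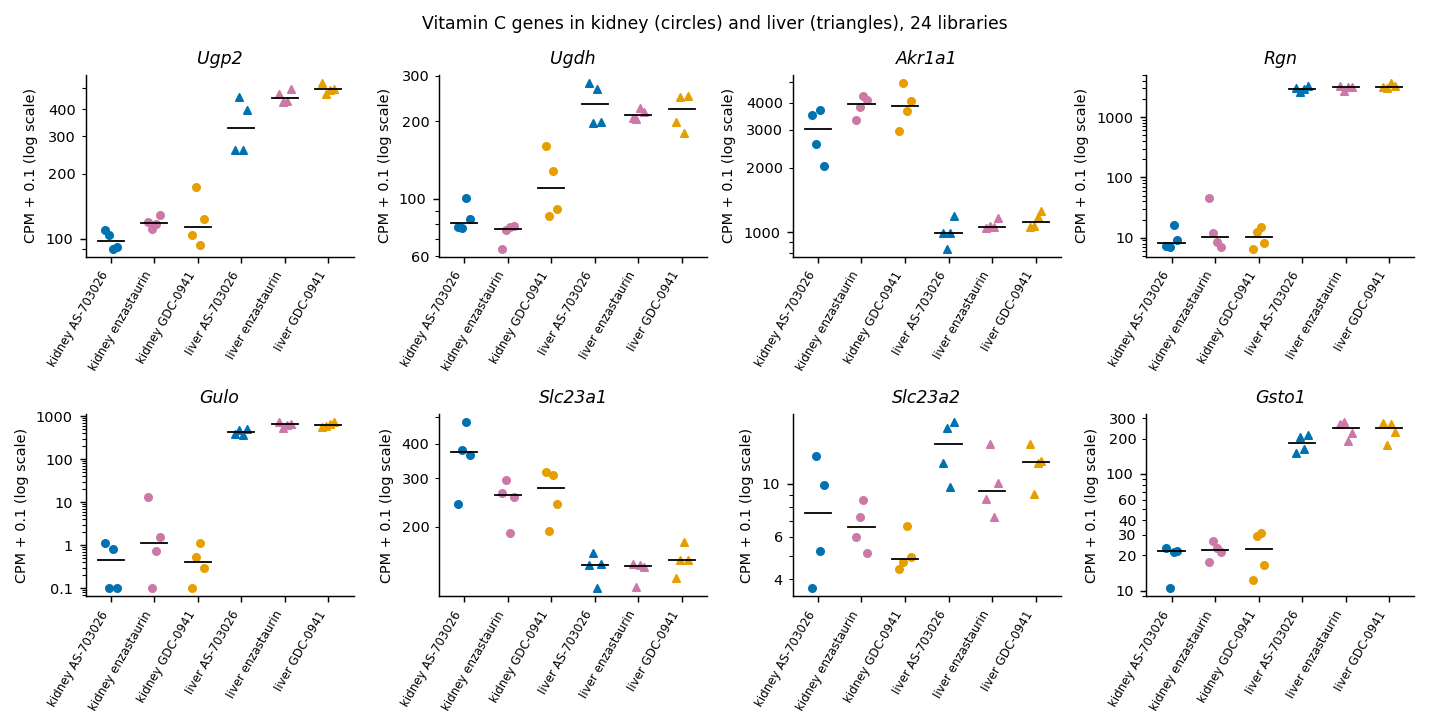
Levels of the 8 vitamin C genes in kidney (circles) and liver (triangles) by compound, in CPM scaled over the 24 libraries with 0.1 added, on log axes; points are libraries and the black line is the group median. Akr1a1 and Slc23a1 are higher in kidney, Slc23a2 overlaps between tissues, and Gulo and Rgn lie far higher in liver.

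Within each compound the directions were the same. Within AS-703026 all 8 genes passed (62.1% of all genes did), within GDC-0941 all 8 (62.5%) and within enzastaurin 7 (63.3%), where Slc23a2 had a log2 difference of -0.61 ± 0.31 (edgeR adjusted p = 0.0830). Slc23a2 within AS-703026 (-0.89 ± 0.32, adjusted p = 0.0168) lost its call without kidney AS-703026 replicate 1 (0.0546) or 3 (0.0765) or liver AS-703026 replicate 4 (0.0891), and with raw totals it turned to 0.12 within enzastaurin, where it was not called. Slc23a1 was 1.37 ± 0.19 higher in kidney on the log2 scale within AS-703026, 0.86 ± 0.19 within enzastaurin and 0.79 ± 0.19 within GDC-0941. Ugdh was -1.47 ± 0.18, -1.51 ± 0.17 and -0.93 ± 0.17 in that order, and with raw totals the last became -0.34 (adjusted p = 0.0851). Tests of whether the tissue difference varied with compound called 0 of 8 genes by edgeR, where 0.163% of all genes were called. The lowest edgeR adjusted p was 0.486, for Ugdh, the only one of the 8 at an unadjusted p under 0.05, where 1228 of all 12262 genes stood. DESeq2 and limma voom also called 0 of the 8.

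Genes around the pathway were called in both directions between the tissues in the same samples. Of 11 tested genes of the glucuronate and xylulose branch 9 were higher in kidney and 2 lower, beside 39.2% and 38.2% of all genes. Their median log2 difference was 1.09, against 0.05 over all genes. Miox was nearly confined to kidney, with 1332 to 2962 CPM there and 5 counts in 12 liver libraries, 10 of them at 0. Dcxr was 1.05 ± 0.11 higher in kidney and Cryl1 1.77 ± 0.09 (edgeR adjusted p of 1.62e-09 and 1.28e-15). Hk1, a hexokinase of most tissues, stood at 54.3 ± 12.5 CPM in kidney and 2.95 ± 1.58 in liver (SD, n = 12 each). Pgm1 was lower in kidney, by a difference of -1.78 ± 0.07.

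Of 7 dehydroascorbate carriers and transporter partners 4 were higher in kidney and 2 lower (median 1.11), beside 39.2% and 38.2% of all genes. Slc2a2, the glucose carrier of hepatocytes, stood at 96.9 ± 19.8 CPM in kidney and 356 ± 78.9 in liver, and Slc2a8, an intracellular carrier, at 3.95 ± 1.79 and 20.8 ± 4.59. Slc2a4 stood at 5.65 ± 2.87 CPM in kidney and had 12 counts in 12 liver libraries. Slc23a3, an orphan relative of the ascorbate transporters, stood at 4.14 ± 2.92 CPM in kidney and had 3 counts in 12 liver libraries. Gsto2 was too low to test, with 32 counts in kidney and 8 in liver.

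Of 10 genes of dehydroascorbate reduction and thiols 2 were higher in kidney and 7 lower (median -0.58), beside 39.2% and 38.2% of all genes. Among the lower were Txnrd1, a thioredoxin reductase (-2.44 ± 0.08), Gclc, of glutathione synthesis (-1.46 ± 0.12), P4hb, protein disulfide isomerase (-1.24 ± 0.09), and Cyb5r3 (-1.22 ± 0.11). Of 18 ascorbate-using hydroxylases 10 were higher in kidney and 5 lower (median 0.46), beside the same shares of all genes. Those lower included Hpd (-5.56 ± 0.14), Bbox1, the last enzyme of carnitine synthesis (-6.46 ± 0.26), and Phyh, which starts the breakdown of phytanic acid (-2.06 ± 0.11). Plod2, a collagen lysyl hydroxylase, stood at 50.4 ± 15.4 CPM in kidney and 0.459 ± 0.618 in liver.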

How the data were processed

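Libraries were made by CEL-seq, which reads the 3′ ends of polyadenylated RNA. The values are raw counts per gene, deposited by the authors as a table of 43629 Ensembl genes and 42 libraries. Per the submitters' processing notes the tools were featureCounts 1.5, STAR 2.5.2b, Trimmomatic 0.32 and bcl2fastq 1.8.4, with mm10. The annotation release, strand setting and collapsing of molecular identifiers were not given in the sources used here.

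Symbols came from GENCODE M21 (42462 rows matched). Counts were scaled by TMM, filtered by filterByExpr and tested by edgeR 4.0.16's quasi-likelihood test (R 4.3.3) with Benjamini-Hochberg adjustment at 0.05. The fits used 30 kidney libraries (11719 genes), 12 liver libraries (9490) and 24 libraries of both (12262), and each has its own CPM scale. SE is the log2 change over the root of its F. Alternatives were DESeq2 1.42.0, limma 3.58.1 voom with sample weights, RLE scaling, raw totals, no filter, the 2 groups alone, a replicate block and leaving out libraries. The submitters call the libraries biological replicates. Replicates of a group differed beyond counting noise (lowest chi-square per gene 4.10). The scripts were tested on simulated counts.

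The 8 genes, the lists and the tests were chosen with earlier results of these data known. All 8 genes are named. From the pathway lists, Miox, Dcxr and Gsto2 are named always, and up to 4 passing genes per list and comparison by smallest p. Cryl1 was added between tissues after its value was seen. A listed gene is not reported here by name. The genes most like a member were taken from those averaging 10 CPM or more, and 1 to 3 are given for each of the 7 tested in kidney and for Gulo in liver. All marker lists were summed, and those of endothelial cells (4 genes, 83.8 to 265 CPM in kidney) and leukocytes (4 genes, 65.1 to 272 CPM) set no kidney library far apart. Of the ascorbate-using hydroxylases, 21 matched a row of the table.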

Additional observations from a re-analysis of the deposited data

Results flagged for a closer look

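Of 80 sets of 4 to 6 libraries, 8 genes in 10 groups, 3 held a library far from the rest (a gap to the nearest library above Dixon's 95% limit for the range), and chance gives about 1 in 20. Gulo stood at 17.04 CPM in kidney enzastaurin replicate 1, against 0 to 1.86 CPM in the other 3. Rgn stood at 58.78 CPM in the same library, against 8.998 to 15.1 CPM. This is the kidney library with 630 CPM of Alb. Gsto1 stood at 13.19 CPM in kidney AS-703026 replicate 2, against 27.2 to 29.6 CPM in the other 3, and this library had the highest share of satellite-like counts, 29.0%.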

How the results depend on the processing

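Over 2994 values of the 8 genes under alternatives, 2964 kept their side of the threshold, 23 gained a call and 7 lost one, the losses being of Slc23a2 and Ugdh between tissues. The sign changed in 69, all of values called in neither fit. Counts of called genes moved from 0 to 1 without the filter for ascorbyl-palmitate, AS-703026, any kidney difference, the tissue by compound test (Gulo, adjusted p = 0.00976) and AS-703026 against enzastaurin, and to 2 for AS-703026 against GDC-0941 and any liver difference. They moved to 1 with DESeq2 for AS-703026 in kidney, AS-703026 against both liver compounds and any liver difference; with voom for AS-703026 in kidney and against GDC-0941 in liver; with the 2 groups alone or without the libraries with liver transcripts for AS-703026 in kidney; and without those of high satellite-like share for AZD8055 (which leaves 2 AZD8055 libraries). Leaving out 1 library gave 0 to 1 for AS-703026 in kidney and 0 to 2 for AS-703026 against each liver compound and any liver difference. Gulo, called in the tissue by compound test without the filter, stood at 13.0 CPM in kidney enzastaurin replicate 1 on the scale of both tissues. This is the library with 630 CPM of Alb, and the other kidney enzastaurin libraries had 0 to 1.44 CPM of Gulo. The unfiltered test was not repeated without replicate 1. Slc2a4 with AZD8055 was -0.14 without the libraries with liver transcripts and ran from -0.14 to 2.96 when 1 library was left out. Over all genes, the calls with ascorbyl-palmitate were 5 by edgeR, 147 by DESeq2, 155 without the filter and 307 by voom; with AS-703026 108, 258, 296 and 188; with AZD8055 640, 633, 756 and 235; with enzastaurin 0, 27, 57 and 154; with GDC-0941 16, 185, 70 and 100; with KU0063794 5, 61, 49 and 342; for any kidney difference 294, 525, 1196 and 24; in liver, AS-703026 against enzastaurin, 281, 398, 673 and 312; AS-703026 against GDC-0941, 306, 449, 769 and 393; enzastaurin against GDC-0941, 0, 18, 207 and 0; for any liver difference 304, 498, 940 and 330; and for tissue by compound 20, 131, 484 and 12.

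Shared replicate numbers showed no pairing of the libraries: over 48 same-numbered pairs the correlation of deviations ran from -0.19 to 0.19. In 0 of 12 comparisons was every pair over 0.1, and other-numbered pairs ran from -0.48 to 0.41. With so few replicates this check cannot exclude that kidney and liver libraries came from the same mice. The tissue tests treated all libraries as independent. With a replicate block the counts of called genes were 8 between tissues, 8, 7 and 8 within AS-703026, enzastaurin and GDC-0941, and 0 elsewhere, as without it. Over all genes the block gave 15 calls with ascorbyl-palmitate, 0 with AS-703026 and 27 with AZD8055. Few counts limit Gulo, Rgn and Slc23a2 in kidney.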
